A study of Rattus norvegicus with 4 samples.

Results

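The genes described here encode the subunits of the proteasome and the proteins that assemble, activate or inhibit it. They were chosen by name: every row with a numeric gene ID whose symbol is Psma, Psmb, Psmc, Psmd, Psme or Psmf followed by a number was taken, and Psmb8, Psmb9 and Psmb10, the catalytic subunits of the immunoproteasome, were set apart. This gave 41 genes of the 17445 rows in the 4 files together, of which 13984 rows carried a gene ID and 3461 were gene models assembled anew by the submitters. No measured value was used to choose them.

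RNA-seq was made from hippocampal tissues of neonatal Wistar rat pups on postnatal day 1 (PND1). The dams, 10 weeks old by the labels, received bisphenol A (BPA, a plastic monomer that can act on hormone receptors) at 5000 µg per kg of body weight each day from gestational day 1 until parturition, or the vehicle control alone. There was 1 library for each combination of sex and treatment, named male or female and control or BPA, each made from the pooled RNA of 3 hippocampi. The pups of a pool cannot be told apart, so there was no biological replicate within a sex and a treatment, and litters or handling that differed between pools cannot be told apart from the treatment.

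The proteasome is the main machine that degrades ubiquitin-tagged proteins in the cytosol and nucleus. Its core particle is a barrel of stacked alpha and beta rings, with the proteolytic sites on the inner face of the beta rings. A regulatory particle at each end holds a ring of ATPases that unfold substrates and a set of non-ATPase subunits that bind ubiquitin chains, remove them and hold the complex together. In neurons the proteasome takes part in synapse remodelling, axon growth and the turnover of receptors and scaffold proteins. The subunits must be made in fixed proportions, and their genes are known to be driven together by a transcription factor of the Nrf family, Nfe2l1, through the antioxidant response element, whose core is written TGACNNNGC.

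To show what this element looks like in the rat, the 250 bases before the annotated start of 4 genes are printed, 5′ to 3′ on the strand of the gene, from RefSeq on the GRCr8 assembly: the 3 catalytic beta subunits, and Psmd9, the member with the largest difference between treatments in females. GRCr8 is not the build of the deposited values, so the positions serve for the sequences only. Capitals mark TGACNNNGC, or CCAAT, the box bound by NF-Y, on either strand. The windows lie at chr15:32047380-32047629 (minus strand) for Psmb5, chr10:55737638-55737887 (plus) for Psmb6, chr3:42827471-42827720 (minus) for Psmb7 and chr12:39018265-39018514 (minus) for Psmd9.
Psmb5: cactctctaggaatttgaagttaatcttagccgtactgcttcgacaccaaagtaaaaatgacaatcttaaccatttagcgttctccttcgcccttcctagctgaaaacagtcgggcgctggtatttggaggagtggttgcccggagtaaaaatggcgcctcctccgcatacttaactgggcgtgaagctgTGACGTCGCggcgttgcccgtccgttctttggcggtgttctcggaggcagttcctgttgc
Psmb6: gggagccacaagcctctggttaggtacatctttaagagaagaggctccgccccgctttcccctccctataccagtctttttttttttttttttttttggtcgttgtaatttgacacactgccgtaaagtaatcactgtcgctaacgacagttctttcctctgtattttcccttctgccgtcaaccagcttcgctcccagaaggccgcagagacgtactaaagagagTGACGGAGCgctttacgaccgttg
Psmb7: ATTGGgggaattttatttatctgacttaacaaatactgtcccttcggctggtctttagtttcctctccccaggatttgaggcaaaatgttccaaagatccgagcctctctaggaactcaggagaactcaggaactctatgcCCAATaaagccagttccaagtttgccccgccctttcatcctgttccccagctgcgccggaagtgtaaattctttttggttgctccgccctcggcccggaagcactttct
Psmd9: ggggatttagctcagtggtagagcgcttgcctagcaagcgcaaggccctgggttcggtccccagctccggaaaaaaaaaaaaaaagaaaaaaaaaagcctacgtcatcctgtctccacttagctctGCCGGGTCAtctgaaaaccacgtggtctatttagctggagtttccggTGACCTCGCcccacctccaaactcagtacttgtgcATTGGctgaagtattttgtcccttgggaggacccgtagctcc

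The Psmb5 window held TGACNNNGC once, 60 bases before the start, and the Psmb6 window once, 24 bases before it. The Psmd9 window held it at 2 places, on opposite strands, and the Psmb7 window held CCAAT at 2 places and no TGACNNNGC. For comparison, the matches of Psmb2, Psmd1 and Psme4 are shown with 16 bases on each side, since they lie at other distances and, for Psme4, on the other strand. Capitals mark TGACNNNGC alone here.
Psmb2 (68 bases before the start, chr5:144254974-144255014): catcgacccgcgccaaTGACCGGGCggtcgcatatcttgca
Psmd1 (165 bases before the start, chr9:94157790-94157830): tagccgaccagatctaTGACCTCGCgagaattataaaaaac
Psme4 (55 bases before the start, chr14:108706572-108706612): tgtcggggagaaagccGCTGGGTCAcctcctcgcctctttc

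Over windows of 250 bases before to 50 bases after the start, found for 36 of the 41 members, TGACNNNGC was present on either strand in 8 members (Psma3, Psmb2, Psmb5, Psmb6, Psmd1, Psmd3, Psmd9 and Psme4), which is 22.2%, against 12.1% of all 33469 windows of the same length. CCAAT was present in 18 members (50% against 37.5%), and GGAAG, the core bound by ETS factors, in 33 members (91.7% against 70.1%). No searched motif contains another, although matches of different motifs may overlap by some bases, as CCAAT and TGACNNNGC do in Psmb2. These are matches of letters. Whether a factor binds there was not measured.

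Before the members are described, the libraries need a few words. The deposited values are FPKM, fragments per kilobase of transcript scaled to the number of mapped fragments, and the depth recovered from the steps between low values was 8639000 to 8926000 fragments per library. Of the low values used, 95.3% to 98.5% per library came out as whole fragments within 0.15 of a fragment, where even spacing would give 30%. All 10 marker genes of hippocampal excitatory neurons were listed, with a summed level of 451.24 to 504.42 FPKM. Markers of tissue next to the hippocampus were uneven: the 6 choroid plexus genes summed to 266.6 FPKM in the male control and 707.94 in the male BPA library, against 8.52 and 47.93 in their female counterparts. Most of this sum was Ttr, except in female control. The 8 vessel wall and meninges genes summed to 128.08 and 115.66 FPKM in males and to 182.84 and 117.22 in females, control before BPA. All 8 of the latter were lower in female BPA than in female control. In the same order, the red blood cell genes summed to 972.48 and 810.99 FPKM in males and to 778.97 and 970.71 in females. The 7 radial glia and astrocyte genes summed to 1284.31 and 1152.1 FPKM in males and to 1275.31 and 1184.48 in females. The part of these tissues and cells in the results below was not tested. In pooled tissue fewer cells of a type and less RNA per cell cannot be told apart.

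The proteasome genes were abundant. Of the 41 members, 40 were listed in all 4 files and 39 had a mean of at least 1 FPKM, the level required for testing. All 39 lay above the median of the rows with a gene ID, 32 of them above the 85th percentile, and 28 had a mean of at least 50 FPKM. The remaining members are tissue-restricted forms: Psma8, the testis-specific alpha subunit, was listed in the female files only, at 0.01 (control) and 0.06 (BPA) FPKM. Psmb11, the thymus-specific beta subunit, was at 0.13 and 0.09 FPKM in males and 0.18 and 0.13 FPKM in females. Where 4 values follow each other from here on, they are the male control, male BPA and then the female libraries in the same order of treatments.

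Summed over the members, the level was 2975.43, 2980.25, 2927.1 and 3156.68 FPKM. The first 3 libraries lay close together and female BPA was above them. As a share of the summed FPKM of the library, the members took 0.696%, 0.700%, 0.705% and 0.735%. On this share, which takes out differences in the total, female BPA was above female control by 0.06 on the log2 scale, against 0.11 for the plain sum. The male libraries differed by 0.01 on the share and by less than that on the sum.

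**Figure D1:**
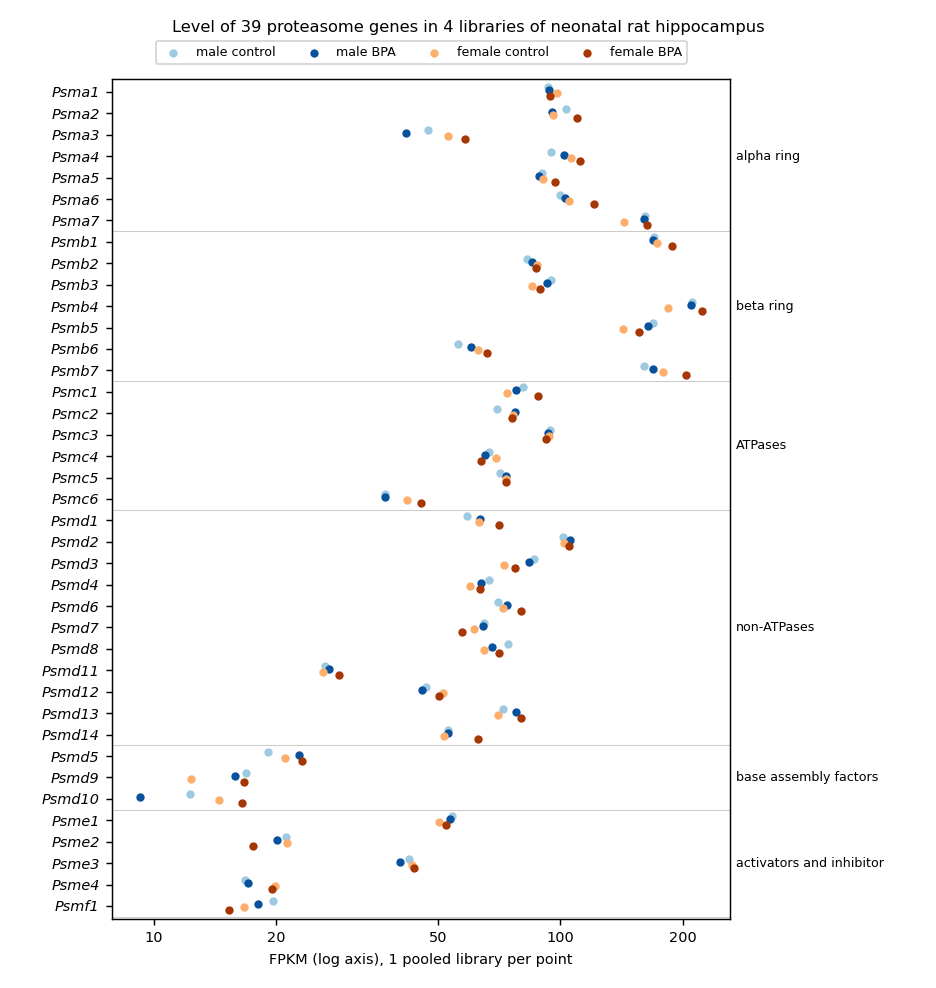
Level in FPKM (log axis) of the 39 proteasome genes with a mean of at least 1 FPKM, grouped by class, with 1 point for each pooled library. The points of a gene lie close together compared with the distance between genes, from Psmd10 at 9.26 to 16.47 FPKM up to Psmb4 at 183.51 to 222.95 FPKM.

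The median levels differed between the classes of the complex. The 7 tested beta ring genes had medians of 160.63, 163.93, 142.89 and 155.71 FPKM and the 7 tested alpha ring genes 94.85, 95.41, 98.27 and 110.06 FPKM. The 6 ATPases had medians of 70.38, 75.27, 73.8 and 74.84 FPKM and the 11 non-ATPases 66.83, 64.49, 63.01 and 70.54 FPKM. Thus the medians of both rings were above those of the ATPases and the non-ATPases in every library. Single genes crossed this order: Psmd2, with a mean of 103.48 FPKM, was above Psma5 at 91.44 and Psmb2 at 85.5. A link between level and architecture was not tested. The median of the 14 ring genes was 1.39, 1.46, 1.47 and 1.57 times that of the 17 regulatory particle genes. The 3 assembly factors of the regulatory particle base, Psmd5, Psmd9 and Psmd10, were the lowest class, with medians of 16.82, 15.82, 14.46 and 16.65 FPKM, and the activators and the inhibitor had medians of 21.09, 20.04, 21.3 and 19.52 FPKM.

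**Figure D2:**
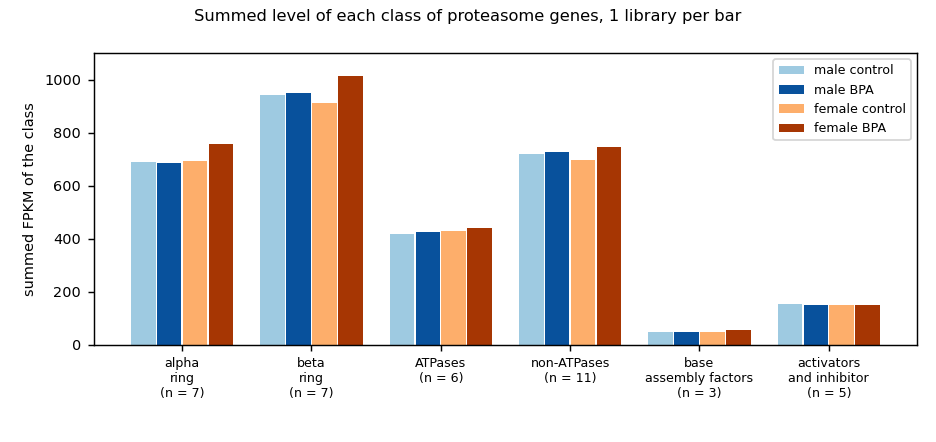
Summed FPKM of the tested genes of each class (axis from 0), 1 bar for each pooled library and no error bars, since there was 1 library per group. The sums of the first 5 classes were highest in female BPA, and the sum of the activators and inhibitor was lowest there.

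The order of the 39 genes was nearly the same in each library, with a Spearman rho across genes of 0.977 to 0.991 for the 6 pairs of libraries, a description across genes that share a library and are not replicates. Of the 38 pairs of neighbours in this order, 33 had ranges over the 4 libraries that overlapped and 5 did not, so the order is firm between distant genes only. Psmb4, a beta subunit without proteolytic activity, was highest at 210.29, 210.06, 183.51 and 222.95 FPKM. In the alpha ring Psma7 was highest (161.04, 160.36, 143.03 and 163.22 FPKM) and Psma3 lowest (47.11, 41.7, 52.86 and 58.28 FPKM). In the finished particle each alpha subunit occurs in the same number.

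The low place of Psma3 and of Psmb6 has to be read with near copies of these genes. A locus annotated as Psmb6-like, LOC100360846, had its own row at 83.08, 75.34, 72.37 and 86.81 FPKM, above the Psmb6 row itself. Psma3l, a copy of Psma3, had 46.45, 47.28, 47.99 and 48.96 FPKM. The counter may divide fragments between such copies, so the value of either row alone is uncertain. With copy and gene summed, Psmb6 stood at 139.03, 135.49, 135.05 and 152.63 FPKM and Psma3 at 93.56, 88.98, 100.85 and 107.24 FPKM, within the range of the other ring genes.

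The catalytic beta subunits carry the proteolytic sites: Psmb5 cleaves after hydrophobic residues, Psmb7 after basic and Psmb6 after acidic ones. Psmb5 was at 168.71, 163.93, 142.89 and 155.71 FPKM, lower in both female libraries than in both male ones. Psmb7 was at 160.63, 168.59, 178.32 and 203.88 FPKM, with the opposite order. Psmb6 was at 55.95, 60.15, 62.68 and 65.82 FPKM without its copy.

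The immunoproteasome subunits that can replace them under interferon were low. Psmb8 did not exceed 0.45 FPKM, Psmb9 was at 1.47, 2.55, 2.44 and 0.81 FPKM, and Psmb10 was at 11.83, 11.54, 9.01 and 9.42 FPKM. Together they made up 3.44%, 3.57%, 2.98% and 2.45% of the summed level of the 6 exchangeable catalytic subunits. Psmb6 was taken without its copy here. With the copy, Psmb5, Psmb6 and Psmb7 summed to 468.37, 468.01, 456.26 and 512.22 FPKM, which lowers the share. This share is over the whole tissue, so it does not tell in which cells they were expressed.

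Among the ATPases, which form the unfolding ring, Psmc3 was highest (94.19, 93.43, 93.64 and 92.09 FPKM) and differed least between libraries. Psmc6 was lowest (37.05, 37, 41.96 and 45.32 FPKM). Among the non-ATPases, Psmd2, a large scaffold on which ubiquitin receptors and deubiquitinases dock, was highest (101.56, 105.73, 101.86 and 104.78 FPKM), and Psmd11, which links the lid to the base of the regulatory particle, was lowest (26.4, 27.01, 26.08 and 28.58 FPKM).

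Psme1 and Psme2 encode the partner subunits of the interferon-inducible activator that caps the core particle. Psme1 was at 54.22, 53.48, 50.2 and 52.42 FPKM and Psme2 at 21.09, 20.04, 21.3 and 17.52 FPKM. The genes lie close together, with 1 annotated protein-coding gene between them. Psme3, a nuclear activator, was at 42.31, 40.25, 43.06 and 43.63 FPKM. Psme4, another nuclear activator, was at 16.79, 17.02, 19.9 and 19.52 FPKM, and Psmf1, an inhibitor of the core particle in vitro, was at 19.61, 18.01, 16.62 and 15.26 FPKM, below the male libraries in both female ones.

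To ask whether prenatal BPA changed the expression of these genes, BPA and control libraries were compared first over both sexes together. With limma on log2(FPKM + 1), 2 libraries against 2, no member of 39 had a Benjamini-Hochberg adjusted p under 0.05, and neither did any of the 13542 rows tested (0%). An unadjusted p under 0.05 was found for 0 members and for 637 rows (4.7%), 1.6% with BPA higher and 3.11% with BPA lower. On simulated data of this size the same fit recovered 0% of changes of 0.25 or 0.5 and 32.5% of changes of 1 on the log2 scale. Differences of the size seen here may therefore have been missed. The simulation changed 200 of all 13542 rows, so recovery for the members alone was not measured.

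The member nearest to the threshold was Psmd5, a chaperone of the ATPase ring, at 19.05, 22.68, 21.02 and 23.16 FPKM. Both BPA libraries were above both controls, by 0.19 ± 0.11 on the log2 scale (SE), with an adjusted p of 0.973 in limma. Psmd13, a lid subunit, was at 72.19, 77.82, 70.2 and 80.16 FPKM (0.15 ± 0.09, limma adjusted p = 0.973), again without overlap. Psme2 was lower in both sexes (−0.17 ± 0.12, limma adjusted p = 0.973). Psmb4 (0.14 ± 0.11, limma adjusted p = 0.973) and Psmd1, a large scaffold of the base, at 58.97, 63.47, 63.01 and 70.54 FPKM (0.13 ± 0.11, limma adjusted p = 0.973), completed the 5 members with the smallest p-values. The BPA and control values of Psmb4 overlapped and those of Psmd1 did not. Apart from Psmd13, each of these differences moved by over 1.5 times when a library was left out: Psmd5 to 0.12 without male control, Psme2 to −0.08 without female BPA and −0.26 without male BPA, and Psmd1 to 0.06 without female BPA, 0.09 without male control and 0.21 without male BPA. Psmb4 moved to 0.04 without female control and to 0.24 without male control. With 2 libraries a side, the smallest two-sided p of an exact permutation test is 0.333.

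Of the 39 members, 27 were higher in BPA on average and 12 lower, against 45.6% and 54.4% of all rows. Of the rows with a gene ID and a mean of at least 50 FPKM, 58.8% were higher, as were 23 of the 28 members of that level. The median difference of the members was 0.04, against −0.02 over all rows. It was 0.006 without the female BPA library and 0.10 without the male BPA library, so it rests on 1 library. Groups did not overlap for 6 members with BPA higher (Psmd1, Psmd2, Psmd5, Psmd6, Psmd11 and Psmd13; 13.8% of all rows) and for 3 with BPA lower (Psmc3, Psmc4 and Psme2; 19.9%). All 6 of the former belong to the regulatory particle or its assembly, and so do Psmc3 and Psmc4 of the latter. Of the 39 members, 17 are regulatory particle genes and 3 are its assembly factors. This grouping was seen after the values were known and was not tested.

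The sexes were then described one by one, where 1 library stood against 1 and no test was possible. The intervals given are 95% intervals (Clopper-Pearson) on the estimated fragments and cover counting error only. Unlike the differences, these intervals carry no added 1, so for low members they need not be centred on the difference given. They extended, at the median, 0.14 to either side on the log2 scale in each sex. The fewest fragments behind a member in a library were 50.9, for Psmd10 in male BPA, and the most were 2680.

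**Figure D3:**
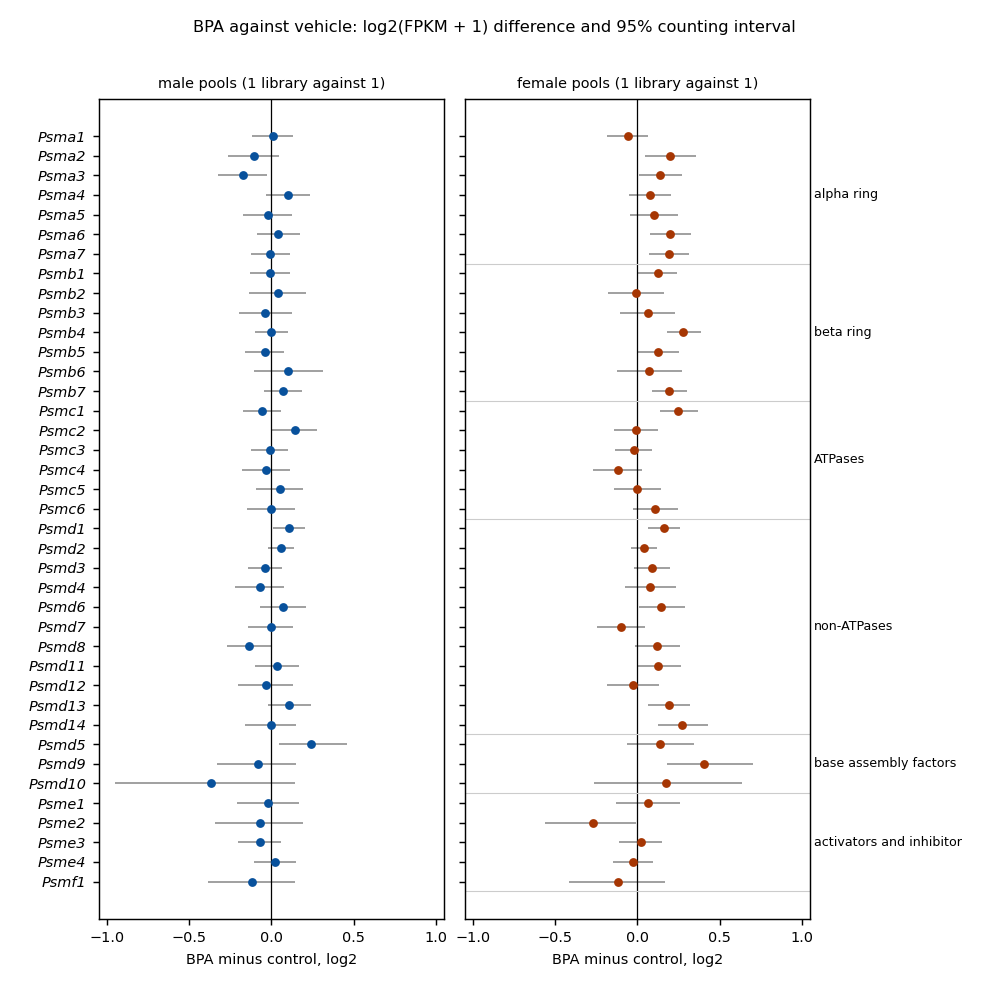
Difference between the BPA and the control library, on log2(FPKM + 1), for 39 proteasome genes in the male pools (left) and the female pools (right). Points are 1 library against 1 and lines are 95% counting intervals, which do not include the spread between animals. Points scatter on both sides of 0 in males, and 28 of 39 lie above 0 in females.

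In males the members differed little. The median difference was −0.006, against −0.002 over all rows, and 28 of 39 members lay within 0.1 of 0. Of the 39, 15 were higher in BPA (49.2% of all rows) and 24 lower (50.3%), a split that turned to 22 higher after quantile normalization. No member was higher by 0.25 or more (12% of all rows) and 1 was lower by as much (12.6%). None differed by 1 or more (1.7%).

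That 1 member was Psmd10, also known as gankyrin, a base chaperone that is studied as an oncoprotein. It was at 12.23 FPKM in male control and 9.26 in male BPA, a difference of −0.37 with a counting interval from −0.95 to 0.15, which spans 0. A new gene model joined to the Psmd10 gene ID was at 5.11, 5.87, 7.24 and 6.1 FPKM, and with both summed the difference was −0.19. The low depth behind this short gene leaves its male difference undetermined.

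The interval lay wholly above 0 for 3 members in males (14.6% of all rows). These were Psmd5 (0.24, interval 0.04 to 0.46), Psmd1 (0.10, 0.01 to 0.21) and the ATPase Psmc2 (0.14, from 69.87 to 77.14 FPKM). It lay wholly below 0 for 2 members (13.7%): Psma3 (−0.17, interval −0.32 to −0.03) and the lid subunit Psmd8 (−0.13, from 74.37 to 67.67 FPKM). The other members with the largest differences were Psmd13 (0.11) and Psmb6 (0.10) on the higher side and Psmf1 (−0.12) and Psma2 (−0.11, from 102.92 to 95.41 FPKM) on the lower, all with intervals that span 0. The Psmb6 difference turned to −0.04 when its copy, itself at −0.14, was added. The shares of members with intervals off 0 are under those of all rows.

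In females the members leaned towards higher values in BPA. The median difference was 0.10, against −0.04 over all rows, and 28 members were higher (43.2% of all rows) and 11 lower (56.6%). The number higher was 26 after quantile normalization and 34 after median centring, and the median was 0.06 and 0.16 in turn. However, abundant genes as a whole leaned the same way in these libraries. Among the 1584 rows with a gene ID and a mean of at least 50 FPKM, 65.1% were higher in female BPA, with a median of 0.06, and among the 28 members of that level 21 (75%) were higher, with a median of 0.09. Among such rows shorter than 1000 bases 73.2% were higher, with a median of 0.12, and of the 10 members under 1000 bases, of any level, 90% were higher, with a median of 0.15.

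**Figure D4:**
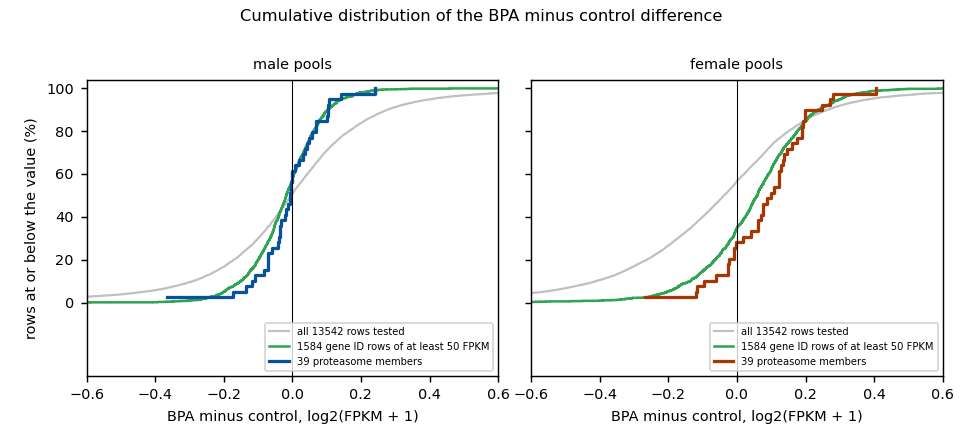
Cumulative share of rows (%) at or below a given BPA minus control difference on log2(FPKM + 1), for all 13542 rows tested, the 1584 rows with a gene ID of at least 50 FPKM and the 39 proteasome members. In males the member line runs close to that of abundant rows. In females both lie to the right of all rows, with medians of 0.10 for members, 0.06 for abundant rows and −0.04 for all rows.

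By class, the alpha ring was higher for 6 of 7 genes in female BPA (median 0.14), the beta ring for 6 of 7 (0.12), the non-ATPases for 9 of 11 (0.12) and the assembly factors for 3 of 3 (0.18). The ATPases were higher for 2 of 6 (median −0.005) and the activators and inhibitor for 2 of 5 (−0.03). No test was made of differences between classes, and with 1 library per group none can be.

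Past 0.25 in females were 3 members on the higher side (11% of all rows) and 1 on the lower (21.3%), and none passed 1 (2.32%). Psmd9, a base chaperone, was at 12.32 FPKM in the female control and 16.65 in the BPA library, a difference of 0.41 with a counting interval of 0.18 to 0.70. Female control was the library that stood apart, since male control was at 16.82 and male BPA at 15.82 FPKM. Psmb4 went from 183.51 FPKM in female control to 222.95 FPKM in BPA (0.28, interval 0.18 to 0.38), and there too female control was the lowest library, with both male libraries near 210 FPKM.

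Psmd14, the deubiquitinase of the lid that removes ubiquitin chains before degradation, was at 52.89, 52.75, 51.73 and 62.69 FPKM. Here female BPA stood above the other 3 libraries, and its difference from female control was 0.27 (interval 0.13 to 0.43). Psmc1, an ATPase whose tail helps to open the gate of the core particle, was at 80.89, 77.64, 73.94 and 88.05 FPKM (0.25 in females, interval 0.14 to 0.37). Psma2 was at 95.73 and 110.06 FPKM in the female libraries (0.20) and at 102.92 and 95.41 FPKM in the male ones. Female BPA was thus its highest library.

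The interval lay wholly above 0 in females for 13 members (15.2% of all rows): Psma2, Psma3, Psma6, Psma7, Psmb1, Psmb4, Psmb7, Psmc1, Psmd1, Psmd6, Psmd9, Psmd13 and Psmd14. Of the 28 members of at least 50 FPKM, 11 did so (39.3%), against 38.1% of all such rows. The share of members was thus close to that of equally abundant genes. Psmb7 differed by 0.19 (interval 0.09 to 0.30), and Psmb5 by 0.12, with an interval that reaches 0. The Psmb6 row differed by 0.07, its copy by 0.26 and both summed by 0.18. Summed without the copy, these catalytic subunits were at 385.29, 392.67, 383.89 and 425.41 FPKM. With the copy they were at 468.37, 468.01, 456.26 and 512.22 FPKM.

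On the lower side in females only Psme2 had an interval wholly below 0 (21.9% of all rows), at −0.27 with an interval of −0.56 to −0.01. Its partner Psme1 differed by 0.06, with an interval of −0.13 to 0.26. Quantile normalization and median centring brought Psme2 to −0.25 and −0.21, inside the limit of 0.25. The other members with the lowest differences were the ATPase Psmc4 (−0.12, from 69.3 to 63.71 FPKM), Psmf1 (−0.12), the lid subunit Psmd7, which is the partner of Psmd14 (−0.10, from 61.2 to 57.14 FPKM), and Psma1 (−0.06, from 98.27 to 94.25 FPKM). All of these 4 intervals span 0.

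Set side by side, 10 members were higher in BPA in both sexes (24.4% of all rows), 6 were lower in both (31.6%), 18 were lower in males and higher in females (18.6%) and 5 the reverse (24.6%). Among rows of at least 50 FPKM with a gene ID, the share lower in males and higher in females was 32.5%, and 13 of the 28 members of that level were in this class. Only Psma3 had opposite differences with both intervals off 0 (4.66% of all rows). Summed with its copy Psma3l, it differed by −0.07 in males and 0.09 in females. Psmd1 was the only member whose interval lay above 0 in both sexes. The matching share of all rows was not computed.

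The sexes were also compared over both treatments. In limma, 0 of 39 members and 1 of 13542 rows (0.00738%) had an adjusted p under 0.05. Before adjustment, p was under 0.05 for 4 members and 10.6% of all rows. These 4 were all higher in females, as were 3.88% of all rows, against 6.76% lower. Psma3 differed by 0.32 (limma adjusted p = 0.359), and both female libraries, at 52.86 and 58.28 FPKM, were above both male ones, at 47.11 and 41.7. Summed with its copy, it differed by 0.19 (limma adjusted p = 0.450). Psmd10, at 12.23, 9.26, 14.46 and 16.47 FPKM, differed by 0.50 (limma adjusted p = 0.366), and by 0.31 without the male BPA library.

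Psmc6 differed by 0.23 (limma adjusted p = 0.410) and Psmb7 by 0.21 (limma adjusted p = 0.461), in each case with both female libraries above both male ones. The Psmb7 difference was 0.12 without the female BPA library and 0.31 without the female control. The next was Psmd3, a lid subunit, at 86.07, 83.76, 72.75 and 77.42 FPKM, lower in females (−0.18, limma adjusted p = 0.476). None of these 5 passed the correction for all rows. Over all members 25 were higher in females (49% of all rows) and 14 lower (51%). The groups did not overlap for 15 members with females higher (19.8%) and for 7 with females lower (22.5%). The median difference was 0.04 against −0.005 over all rows. This median was 0.015 without the female BPA library and 0.085 without the female control.

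The other genes of the pathway were measured as lists. The 2 further regulatory particle subunits are Adrm1, a ubiquitin receptor, at 72.2, 72.28, 51.88 and 61.71 FPKM, and Sem1, at 57.37, 51.55, 60.27 and 61.91 FPKM. Of the 6 assembly factors of the core particle, 5 were listed, and Pomp, which guides the maturation of the beta ring, was the most abundant at 165.91, 190.49, 199.15 and 214.9 FPKM. Uba1, the main ubiquitin-activating enzyme, was at 179.8, 184.16, 174.4 and 183.84 FPKM, close to the level of the beta ring. Vcp, the segregase that extracts substrates for the proteasome, was at 152.22, 158.33, 158.92 and 155.53 FPKM.

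Ubb, a gene that encodes ubiquitin itself, was at 1453.46, 1410.72, 1419.4 and 1378.22 FPKM. Ddi2, the protease that activates Nfe2l1, was at 9.25, 11.28, 9.2 and 10.87 FPKM, higher in both BPA libraries (0.26 and 0.22; limma adjusted p = 0.973). Nfe2l2, the related factor that also binds the antioxidant element, was at 2.7, 4.02, 4.19 and 2.99 FPKM. Of the 37 genes of these lists and the immunoproteasome, 32 could be tested, and 0 had an adjusted p under 0.05 in limma in either comparison, with 23 higher and 9 lower in BPA on average (45.6% and 54.4% of all rows). The Nfe2l1 row itself was not matched and is not analysed here.

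Members with and without the antioxidant element core overlapped in level and in difference. The 8 members with TGACNNNGC had a median level of 62.6 FPKM and a median difference of −0.01 in males and 0.11 in females, and the 27 tested members whose window lacked it had 74.9 FPKM, −0.008 and 0.08. Both groups hold genes on each side of 0, and these are descriptions over members that share the same 4 libraries.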

How the data were processed

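RNA-seq of 4 pooled hippocampal libraries, 1 per sex and treatment, was analysed from the tables the authors deposited, which hold FPKM per gene and library (lowest value 0.01). The submitters' processing notes name HISAT 0.1.6, Bowtie2 2.2.5, RSEM and the genome build rn6, without roles, and whether counting used strand is not given in the sources used here. Because 13 members overlap another annotated gene, 7 of them a protein-coding one, and RSEM may divide fragments between copies, such values are uncertain. FPKM also depend on the total of each library, so a large change in a few genes would move all others.

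Files were merged by row name. Members were matched by symbol, and 41 of 41 gene IDs were found in RefSeq on GRCr8. Differences were computed on log2(FPKM + 1), which understates changes of low genes, for rows averaging 1 FPKM or more. Treatments and sexes were each compared, 2 libraries against 2, with limma 3.58.1 (R 4.3.3; eBayes, trend on the mean, Benjamini-Hochberg adjustment over all rows, threshold 0.05), checked on simulated data with 200 changed rows. Each library holds pooled tissue, so these p-values measure only the spread between libraries, and the other factor stands in for replicates. Within a sex there was no test. Fragments were estimated as the depth at which low values (0.03 to 1 FPKM, 300 to 1500 bases) become whole numbers, at about 8.14 to 8.26 fragments per FPKM at 1 kb. Other work used Python 3.11.15 with pandas 2.3.3, numpy 2.4.6, matplotlib 3.10.9 and scipy 1.17.1.

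Full values are given for the 5 largest rises and falls in each sex, the 5 smallest p-values of each limma comparison, the catalytic subunits and the highest and lowest member of each class. Any member may be named. Members, gene lists and tests were chosen with earlier results of these data known. Alternatives were other scalings, filters and pseudocounts, new gene models or copies summed with their gene, covariates and leaving out each library. The sum with copies was added after seeing the data. Protein sequences and the count tables were not used here. The result for 1 gene of the pathway lists is not reported here.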

Additional observations from a re-analysis of the deposited data

Results flagged for a closer look

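Psma3, a subunit of the alpha ring, was noted because its BPA and control values moved in opposite directions in the sexes, with each counting interval off 0: −0.17 in males and 0.14 in females on the log2 scale, so that the female difference exceeded the male one by 0.31. This difference between the sexes was not tested, since each sex had 1 library per treatment. Summed with its copy Psma3l, which was itself nearly level between treatments (0.03 in each sex), the differences were −0.07 and 0.09.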

How the results depend on the processing

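No paired analysis was possible because the labels carry no replicate numbers that link libraries. The fits with sex or treatment as a covariate, given here, block the libraries by the other factor of the design. No member passed an adjusted p of 0.05 under any alternative run with all 4 libraries. Among the 5 largest rises and falls in each sex, no difference with an interval off 0 reversed. The male Psmb6 difference, with an interval that spans 0, turned from 0.10 to −0.04 with its copy summed. The other members with an interval off 0 in females were not followed through all alternatives. For BPA against vehicle over both sexes, the rows past the threshold went from 0 to 1 with new models summed, to 2 with sex as a covariate and to between 0 and 3 with a library left out (3 without female control). For females against males they went from 1 to 2 with median centring, 21 with a filter of 5 FPKM, 9 with new models summed, 55 with treatment as a covariate and 1 to 2 with a library left out, and the median of the members ranged from 0.015 to 0.085, the latter without female control. Rows past a difference of 1 numbered 230 in males and 314 in females, 26 and 62 with a filter of 5 FPKM, and 483 and 590 with a pseudocount of 0.1. Members past 0.25 were 0 higher in males (1 with a pseudocount of 0.1) and 1 lower (0 with new models summed), and in females 3 higher (6 with median centring) and 1 lower (0 with quantile normalization and 0 with median centring). The male median of the members was 0.01 with quantile normalization, against −0.006. On a TPM scale the sums were 6959, 7002, 7052 and 7345 in the order used above, a change of unit. With a library left out, 1 arm holds 1 library, which is assumed to vary like the other group. The cause of these changes was not tested beyond what each setting does. Counting intervals reached 0.079 to 0.549 to either side in males and 0.079 to 0.451 in females, widest for low members, and the lack of replicates limits all of them.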
